A study of Mus musculus with 8 samples.

Results

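The 43 genes described here act on the passage of cells from rest through DNA copying to division, and Cdkn1a and Cdkn1b encode inhibitors of it. All were measured in whole liver of male C57BL/6 mice with diet-induced steatohepatitis, the inflamed and scarred form of fatty liver. They were taken by name from a list drawn up with earlier results of these data known, by a rule that has no cutoff on measured values. All 43 were found among the 54309 genes of the count table, and all passed the filter on low counts. By role, 9 control the step from G1 into S phase, 13 copy DNA or supply nucleotides, and 21 act in G2 and mitosis. All mice ate a diet of fructose, palmitate and cholesterol for 16 weeks. From week 8 to week 16 one treatment was intraperitoneal control IgG and the other anti-CD47 at a dose of 200 µg for each mouse. CD47 is a surface protein that holds back engulfment by macrophages. The series describes 7 to 8 mice per treatment, of which 4 libraries each were measured here (IgG 1 to 4 and antiCD47 1 to 4), and no untreated or chow-fed group was analysed here. The labels do not tie a library to an animal, so p-values measure the spread between these libraries. They reached total counts of 43691472 to 55477484. The series title gives the aim as clearance of dying hepatocytes by macrophages and scarring under CD47 blockade, and its text states no question about the cell cycle. The library antiCD47 1 stood apart from the other antiCD47 libraries in these genes, and the main counts are given with and without it.

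Hepatocytes of the adult liver rest outside the cell cycle and re-enter it after tissue loss. Entry runs through cyclin D1 with CDK4 or CDK6, which releases E2F factors from the retinoblastoma protein. E2F factors then switch on the genes for the replicative helicase, the sliding clamp and nucleotide synthesis. The DREAM complex represses the mitotic genes at rest. Later its MuvB core, with B-MYB and FOXM1, activates them through the CHR elements of their promoters. Many of these promoters also hold CCAAT elements. In a bulk liver library any dividing cell can supply these messengers, including bile duct cells, stellate cells, immune cells and hepatocytes. Fewer cells of a type and less RNA per cell cannot be told apart in such data.

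The promoters of 6 members are shown because all replication and mitosis genes had a negative log2 fold change. They show windows with different mixes of the elements named above, and 1 with none of them. RefSeq promoter windows (GRCm38.p6, 250 bases before to 50 after the annotated start, 5′ to 3′ along the gene) were matched for 35 of the 43 members. Capitals mark the searched motifs on either strand: CCAAT, the CHR spellings TTTGAA and TTTAAA, and the E2F spellings TTTCCCGC, TTTCGCGC, TTTGCCGC and TTTGGCGC. TTTAAA reads the same on both strands, and neighbouring E2F matches can overlap. The windows are Top2a chr11:99024140-99024439 on the minus strand, Ccnb2 chr9:70421505-70421804 on the minus strand, Rrm2 chr12:24708004-24708303 on the plus strand, Mcm6 chr1:128359656-128359955 on the minus strand, Cdc6 chr11:98907901-98908200 on the plus strand and Cdk4 chr10:127063285-127063584 on the plus strand.
Top2a: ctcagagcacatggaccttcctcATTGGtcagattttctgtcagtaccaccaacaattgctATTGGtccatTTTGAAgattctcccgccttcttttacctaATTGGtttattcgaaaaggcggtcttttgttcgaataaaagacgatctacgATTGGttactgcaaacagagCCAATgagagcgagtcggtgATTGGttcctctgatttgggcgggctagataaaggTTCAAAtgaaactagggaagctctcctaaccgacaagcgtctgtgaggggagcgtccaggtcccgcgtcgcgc
Ccnb2: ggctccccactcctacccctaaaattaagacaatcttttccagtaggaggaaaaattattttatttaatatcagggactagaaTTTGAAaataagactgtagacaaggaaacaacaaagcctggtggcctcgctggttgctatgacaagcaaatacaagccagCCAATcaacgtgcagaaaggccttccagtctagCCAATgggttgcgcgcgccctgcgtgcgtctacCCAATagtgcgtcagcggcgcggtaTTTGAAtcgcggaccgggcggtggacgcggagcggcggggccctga
Rrm2: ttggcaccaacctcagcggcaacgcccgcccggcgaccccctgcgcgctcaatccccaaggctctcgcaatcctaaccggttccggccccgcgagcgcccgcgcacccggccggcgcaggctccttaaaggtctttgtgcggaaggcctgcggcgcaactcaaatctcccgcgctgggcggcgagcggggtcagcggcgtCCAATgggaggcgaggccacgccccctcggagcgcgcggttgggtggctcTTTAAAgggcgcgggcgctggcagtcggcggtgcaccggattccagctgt
Mcm6: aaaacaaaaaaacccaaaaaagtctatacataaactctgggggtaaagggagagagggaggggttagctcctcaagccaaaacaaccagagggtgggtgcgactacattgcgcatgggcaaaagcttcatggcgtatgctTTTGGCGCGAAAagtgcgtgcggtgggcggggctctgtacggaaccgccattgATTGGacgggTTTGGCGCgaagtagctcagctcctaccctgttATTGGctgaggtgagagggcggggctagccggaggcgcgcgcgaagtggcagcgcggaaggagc
Cdc6: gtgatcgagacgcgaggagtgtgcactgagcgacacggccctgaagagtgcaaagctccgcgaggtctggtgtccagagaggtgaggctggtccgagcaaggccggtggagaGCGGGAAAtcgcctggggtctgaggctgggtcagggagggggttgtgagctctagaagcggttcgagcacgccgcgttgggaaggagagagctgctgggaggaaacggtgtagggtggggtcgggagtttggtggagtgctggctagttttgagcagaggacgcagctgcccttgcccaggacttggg
Cdk4: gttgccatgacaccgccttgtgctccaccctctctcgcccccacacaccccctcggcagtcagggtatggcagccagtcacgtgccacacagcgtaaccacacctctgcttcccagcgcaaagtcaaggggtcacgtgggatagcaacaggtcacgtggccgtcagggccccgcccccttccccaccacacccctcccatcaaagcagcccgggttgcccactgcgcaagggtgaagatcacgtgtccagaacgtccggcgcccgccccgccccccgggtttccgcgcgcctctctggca

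Top2a held 6 CCAAT and 2 CHR matches and Ccnb2 held 3 and 2, while the Mcm6 window held 3 E2F and 2 CCAAT matches. Rrm2 held 1 CCAAT and 1 CHR match, Cdc6 held 1 E2F match alone, and the Cdk4 window held none of the 3 motifs. In the mitosis group 14 of 16 matched genes had a CCAAT and 14 a CHR match (87.5% each), beside 41.1% and 30.6% of the 27025 genes in the promoter table. Of the 12 matched replication genes 5 had an E2F match (41.7%), beside 2.61% of all genes, 9 had CCAAT and 5 had CHR. The 7 matched G1-S genes had 1, 2 and 2 of these. CCAAT and CHR stood together in 18 of 35 members (51.4%) and in 13.4% of all genes. The median GC content was 58% in the members' windows and 52.7% in all windows, and a letter match is a description of the window only.

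In antiCD47 livers 4 of the 43 members fell and none rose: Rrm2, Cdc6, Ccnd1 and Top2a (edgeR quasi-likelihood test, two-sided, Benjamini-Hochberg adjusted p under 0.05 over the 15472 genes tested). That is 9.3% of the members, beside 5.4% of all genes tested that fell and 5.44% that rose. At an unadjusted p under 0.05, 22 members were lower (51.2%, beside 16% of all genes) and 0 were higher (16.6% of all genes). The log2 fold change of antiCD47 over IgG was negative in 42 of 43 members, Cdkn1a being the exception, with a median of -0.55 beside -0.01 over all genes tested. The median was -0.15 for the G1-S group, -0.50 for replication and -0.66 for mitosis. All 4 antiCD47 libraries lay below all 4 IgG libraries in 9 members (20.9%, beside 10.1% of all genes), 4 of them in replication and 5 in mitosis, and above them in 0 (9.51% of all genes).

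**Figure D1:**
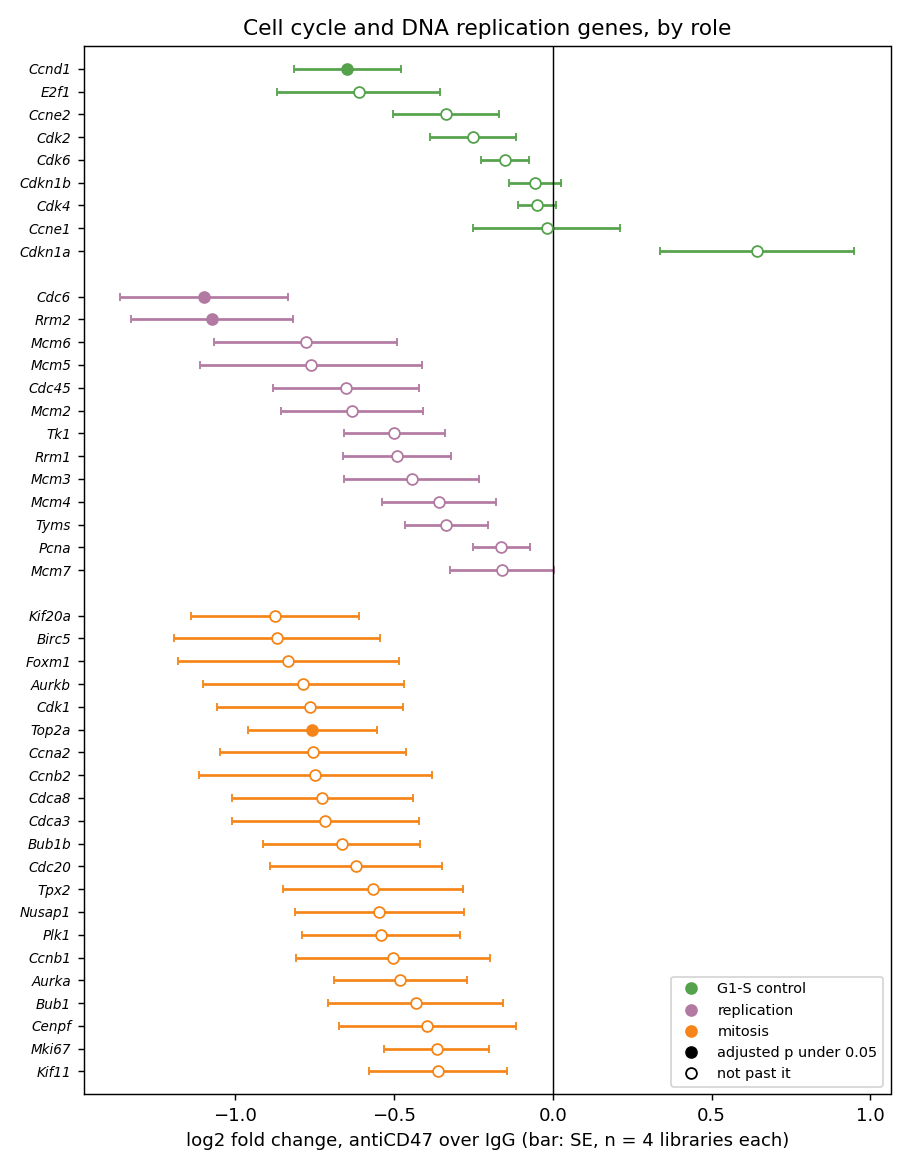
Log2 fold change of antiCD47 over IgG for each of the 43 members (x axis), in 3 role groups, with bars for 1 SE (n = 4 libraries per treatment) and filled points for an adjusted p under 0.05. Points run from -1.10 for Cdc6 to 0.64 for Cdkn1a, and the 4 filled ones are Ccnd1, Cdc6, Rrm2 and Top2a.

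AntiCD47 1 and antiCD47 2 stood at opposite ends of the antiCD47 spread in most members. AntiCD47 1 was the highest of the 4 antiCD47 libraries in 34 of 43 members, in 13 of 13 replication genes and in 19 of 21 mitosis genes. AntiCD47 2 was the lowest in 31 of 43 members, in 12 of 13 replication genes and in 17 of 21 mitosis genes. AntiCD47 1 lay below every IgG library in 13 members, against 38 for antiCD47 2, 41 for antiCD47 3 and 33 for antiCD47 4. The mean over mitosis genes of the log2 level, taken relative to the IgG mean, was -0.03 in antiCD47 1, within the IgG range of -0.04 to 0.04, and was -1.31, -0.83 and -0.63 in antiCD47 2, 3 and 4. For replication genes it was -0.08, -1.07, -0.79 and -0.53, with IgG at -0.10 to 0.13. Without antiCD47 1, 27 members fell (62.8%, beside 11.4% of all genes in that fit) and none rose (11.7% of all genes). The 27 were 14 mitosis, 11 replication and 2 G1-S genes. AntiCD47 1 was singled out by its high values in these same members, so leaving it out lowers the antiCD47 mean in most of them. The 62.8% therefore cannot be weighed against the 11.4% as a separate result.

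**Figure D2:**
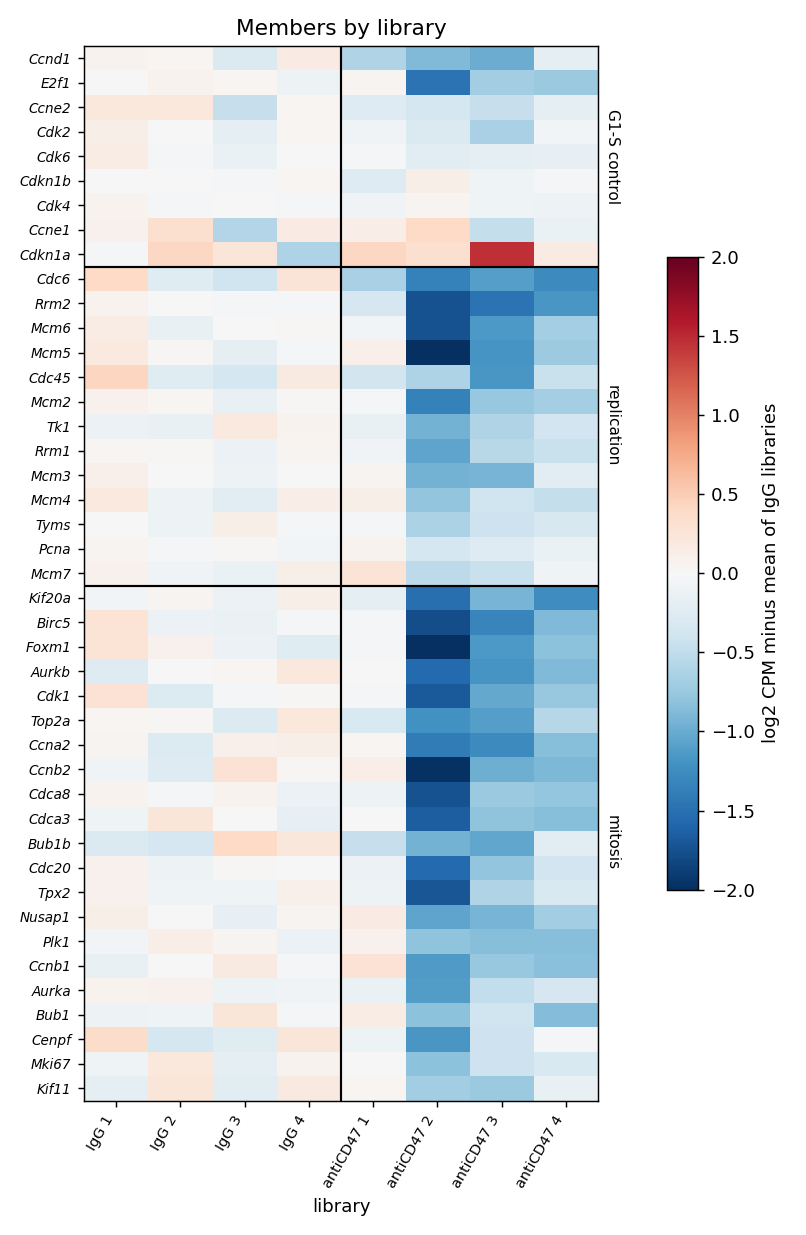
Log2 CPM of each member (rows, in role groups) in each of the 8 libraries (columns), minus the mean of the IgG libraries; the colour scale ends at -2 and 2. The replication and mitosis rows are blue in antiCD47 2, 3 and 4 and near white in most rows of antiCD47 1.

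The calls were also lost with single libraries left out. By edgeR, 0 members passed without IgG 1, IgG 3, IgG 4, antiCD47 2 or antiCD47 3, with 10, 15, 16, 14 and 9 members at an unadjusted p under 0.05 in either direction. Those are 23.3%, 34.9%, 37.2%, 32.6% and 20.9% of the members, beside 25.7%, 24.9%, 26.5%, 25.3% and 25.3% of all genes in the same fits. Without IgG 1 or antiCD47 3 the members' share in either direction was below that of all genes. The log2 fold change was still negative in 42 and 41 of 43 members there, beside 7968 of 15662 and 7998 of 15728 genes. Shares in either direction are not like the 51.2% and 16% above, which count lower genes only. Without IgG 2, 2 passed (Rrm2 and Cdc6), and without antiCD47 4, 1 passed (Ccnd1). Over all genes the number past the threshold, 1678 with all libraries, was 174, 92, 2, 756 and 21 in the first 5 of these fits and 3630 without antiCD47 1. It was 1598 without IgG 2 and 1653 without antiCD47 4, close to the full count, while fewer members passed there. None of these fits turned the sign of Rrm2, Cdc6, Ccnd1 or Top2a. The authors' deposited table gave 11 members an adjusted p under 0.05 (25.6%). Their edgeR sign was negative in each, beside 8.71% of that table's genes lower and 9.77% higher by the same reading. DESeq2 on the deposited counts called 12 members lower (27.9%, beside 9.64% of genes lower and 10.9% higher). Scaling by library totals alone moved the median of all genes to -0.19 and that of the members to -0.72. It called 14 members lower (32.6%, beside 20.4% of genes lower and 2.77% higher).

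Among the genes that control entry into S phase, Ccnd1 fell (1 of 9, 11.1%, beside 5.4% of all genes tested) and the other 8 did not pass. Ccnd1, the gene of cyclin D1, was at 131, 129, 103 and 140.3 CPM (the count scaled to a common library size after TMM normalization) in IgG 1 to 4 and at 82.8, 67.5, 62.7 and 109 in antiCD47 1 to 4. Only antiCD47 4 reached the IgG range, just above IgG 3. Its mean was 126 ± 16.2 CPM in IgG and 80.4 ± 20.6 CPM in antiCD47 (SD, n = 4 each). On the log2 scale the difference was -0.65 ± 0.17, the error being the SE (edgeR adjusted p = 0.0413). Without single libraries its adjusted p ran from 0.019 (without antiCD47 4) to 0.11 (without antiCD47 3), and it passed only without antiCD47 1 or antiCD47 4.

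The cyclin D1 partners moved less. Cdk4 was at 36.3 ± 1.26 CPM in IgG and 35.1 ± 1.72 in antiCD47 (log2 -0.05 ± 0.06, edgeR adjusted p = 0.607), and Cdk6 at 29.4 ± 2.31 and 26.5 ± 1.43 (-0.15 ± 0.08, edgeR adjusted p = 0.199). Cdk6 passed in the authors' deposited table (adjusted p = 0.0229). Among the edgeR fits, both had an adjusted p under 0.05 only with library totals as the scale (0.0279 for Cdk4 at -0.24 and 0.0254 for Cdk6 at -0.33, against the median of -0.19 over all genes). Cdk2, the kinase of cyclins E and A, had a log2 fold change of -0.25 (edgeR adjusted p = 0.226). Its cyclin E partners Ccne1 and Ccne2 were at -0.02 and -0.34 (edgeR adjusted p = 0.964 and 0.193). Ccne2 read 3.81, 3.80, 2.38 and 3.37 CPM in IgG and 2.75, 2.58, 2.38 and 2.87 in antiCD47, so IgG 3 lay within the antiCD47 values.

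E2f1, the factor that switches on S phase genes, read 7.19, 7.64, 7.45 and 6.78 CPM in IgG 1 to 4 and 7.55, 2.60, 4.51 and 4.35 in antiCD47 1 to 4. AntiCD47 1 sat inside the IgG range and the other 3 far below it. The log2 fold change was -0.61 ± 0.26 (edgeR adjusted p = 0.134). The CDK inhibitor genes differed from each other. Cdkn1a, the p21 gene, read 28.8, 39.2, 34.7 and 19.2 CPM in IgG and 39.4, 36.8, 81.3 and 33.0 in antiCD47, with antiCD47 3 far above the other 7 libraries. Its log2 fold change of 0.64 ± 0.30 did not pass (edgeR adjusted p = 0.175; 0.0381 to 0.461 over 17 alternatives). Cdkn1b, the p27 gene, was at 23.8 ± 0.479 and 23.0 ± 2.45 CPM (-0.05 ± 0.08, edgeR adjusted p = 0.672), with values of 23.3 to 24.5 in IgG and 20.03 to 25.9 in antiCD47.

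**Figure D3:**
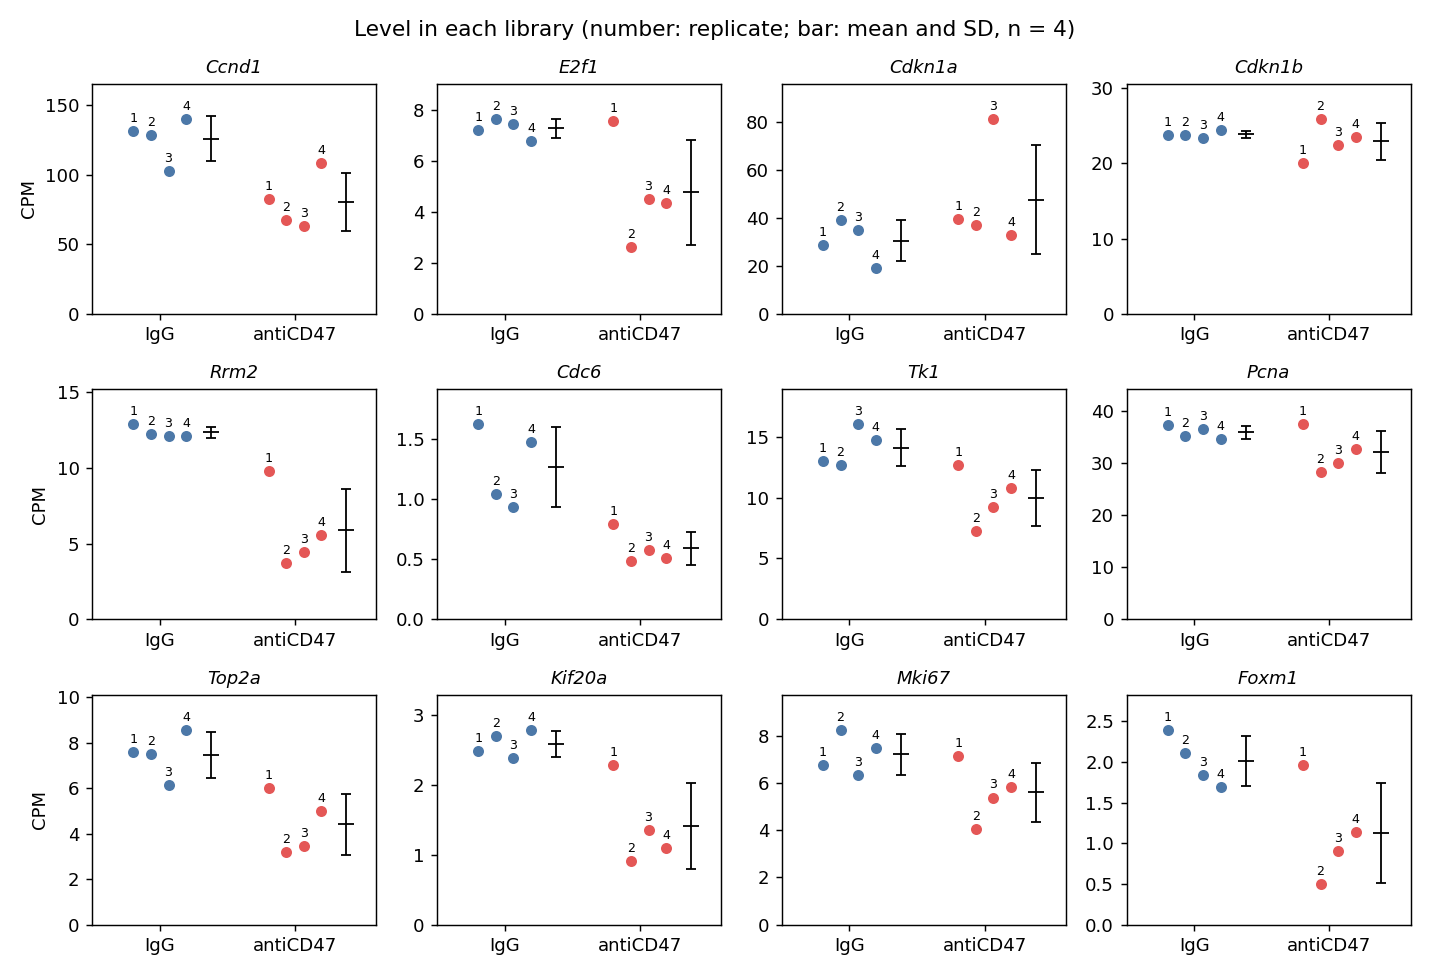
CPM in each library (points, numbered by replicate) for 12 members, 4 from each role group, with the mean and SD of each treatment (n = 4) beside the points; each axis starts at 0. AntiCD47 1 is the highest antiCD47 point in E2f1, Rrm2, Cdc6, Tk1, Pcna, Top2a, Kif20a, Mki67 and Foxm1.

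All 13 genes of replication and nucleotide supply had a negative log2 fold change, and 2 of them fell (15.4%, beside 5.4% of all genes tested). Rrm2, the regulated small subunit of ribonucleotide reductase that makes deoxynucleotides, was at 12.9, 12.3, 12.1 and 12.1 CPM in IgG 1 to 4 and at 9.80, 3.69, 4.44 and 5.54 in antiCD47 1 to 4. The IgG libraries were nearly equal, and every antiCD47 library lay below them. Its mean was 12.3 ± 0.368 CPM in IgG and 5.87 ± 2.73 in antiCD47, and the log2 difference was -1.07 ± 0.26 (edgeR adjusted p = 0.0327; 0.00288 without antiCD47 1). It did not pass without IgG 1, IgG 3, IgG 4, antiCD47 2, antiCD47 3 or antiCD47 4 (0.0545 to 0.0987). The large subunit gene Rrm1 read 23.0, 22.8, 20.5 and 23.1 CPM in IgG and 21.4, 10.7, 15.2 and 16.4 in antiCD47, with antiCD47 1 inside the IgG range (log2 -0.49 ± 0.17, edgeR adjusted p = 0.086).

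Cdc6 helps load the helicase onto replication origins. It read 1.62, 1.04, 0.931 and 1.47 CPM in IgG and 0.787, 0.483, 0.573 and 0.510 in antiCD47, from 383 counts over all 8 libraries. The treatments did not overlap, and the log2 fold change was -1.10 ± 0.26 (edgeR adjusted p = 0.0336). Its adjusted p was 0.0397 without IgG 2 and 0.0154 without antiCD47 1, and 0.0551 to 0.0977 without any other single library. The helicase cofactor gene Cdc45 went from 2.76 ± 0.697 to 1.76 ± 0.393 CPM, with no overlap (-0.65 ± 0.23, edgeR adjusted p = 0.089).

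The 6 genes of the MCM helicase ring were measured at similar levels in IgG, 3.47 to 5.59 CPM per kb of exon, and at 2.10 to 4.95 in antiCD47. Their log2 fold changes were -0.78 for Mcm6, -0.76 for Mcm5, -0.63 for Mcm2, -0.44 for Mcm3, -0.36 for Mcm4 and -0.16 for Mcm7. None passed with all libraries (edgeR adjusted p = 0.0889 to 0.523), whereas Mcm2 and Mcm6 passed in the authors' deposited table (0.0452 and 0.0373). Mcm6 read 27.1, 21.9, 24.1 and 24.7 CPM in IgG and 23.5, 7.29, 10.997 and 15.2 in antiCD47. In Mcm7 antiCD47 1, at 19.7 CPM, was the highest of all 8 libraries and antiCD47 2, at 11.3, the lowest.

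The genes of thymidine supply did not pass. Tk1, the salvage kinase, read 13.02, 12.7, 16.0 and 14.7 CPM in IgG and 12.7, 7.27, 9.22 and 10.8 in antiCD47. Its highest antiCD47 value, 12.69, lay just under the lowest IgG value, 12.70. The log2 fold change was -0.50 ± 0.16 (edgeR adjusted p = 0.0689; 0.0278 in the authors' deposited table). Tyms, the thymidylate synthase gene, was at -0.33 ± 0.13 (edgeR adjusted p = 0.112). Pcna, the sliding clamp of the polymerases that also serves DNA repair, read 37.2, 35.1, 36.6 and 34.5 CPM in IgG and 37.4, 28.2, 30.0 and 32.6 in antiCD47 (-0.16 ± 0.09, edgeR adjusted p = 0.237). The edgeR adjusted p of Pcna was 0.0408 without antiCD47 1 and 0.275 to 0.471 without any other single library.

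Of the 21 mitosis genes 1 fell, Top2a. That is 4.76%, below the 5.4% of all genes tested that fell. All 21 had a negative log2 fold change, from -0.87 (Kif20a and Birc5) to -0.36 (Mki67 and Kif11). Top2a, whose enzyme untangles copied DNA, was at 7.59, 7.51, 6.13 and 8.57 CPM in IgG 1 to 4 and at 6.00, 3.18, 3.46 and 5.003 in antiCD47 1 to 4. The treatments did not overlap, although antiCD47 1 came close to IgG 3. Mean levels were 7.45 ± 1.01 CPM in IgG and 4.41 ± 1.33 in antiCD47, a log2 difference of -0.76 ± 0.20 (edgeR adjusted p = 0.0441). Its adjusted p was 0.011 without antiCD47 1 and 0.0518 to 0.12 without any other single library. Mki67, the usual marker of cycling cells, read 6.75, 8.26, 6.33 and 7.502 CPM in IgG and 7.14, 4.07, 5.39 and 5.81 in antiCD47. AntiCD47 1 was inside the IgG range and the other 3 below it (log2 -0.36 ± 0.16, edgeR adjusted p = 0.158). The edgeR adjusted p of Mki67 was 0.0417 without antiCD47 1 and 0.191 to 0.304 without any other single library.

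Kif20a, a kinesin of cytokinesis, read 2.48, 2.69, 2.38 and 2.78 CPM in IgG and 2.28, 0.906, 1.35 and 1.09 in antiCD47, without overlap (log2 -0.87 ± 0.26, edgeR adjusted p = 0.0604; 0.0378 by limma voom). The edgeR adjusted p of Kif20a was 0.00635 without antiCD47 1 and 0.0965 to 0.141 without any other single library. Birc5, the survivin gene of the chromosomal passenger complex, read 3.15, 2.42, 2.38 and 2.58 CPM in IgG and 2.54, 0.765, 1.04 and 1.41 in antiCD47 (-0.87 ± 0.32, edgeR adjusted p = 0.101). Foxm1, the factor that activates mitotic genes, read 2.40, 2.11, 1.84 and 1.69 CPM in IgG and 1.97, 0.503, 0.901 and 1.13 in antiCD47 (-0.83 ± 0.35, edgeR adjusted p = 0.131). In both genes antiCD47 1 lay among the IgG values and antiCD47 2 was the lowest. Bub1b, a spindle checkpoint kinase gene, differed from that order: it read 1.83, 1.78, 2.94 and 2.63 CPM in IgG and 1.63, 1.17, 1.09 and 1.92 in antiCD47, with antiCD47 4 highest (-0.66 ± 0.25, edgeR adjusted p = 0.101).

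The cyclins and kinase that start mitosis were close to each other. Ccna2 (log2 -0.75), Ccnb2 (-0.75) and Cdk1 (-0.76) did not pass (edgeR adjusted p = 0.111, 0.189 and 0.108), and Ccnb1, the other B-type cyclin gene, was at -0.50 (0.278). Cdk1 passed in the authors' deposited table (adjusted p = 0.0237), as did Cdca8 (0.0466), a passenger complex gene at -0.73 in the edgeR fit. The Aurora kinase genes Aurka and Aurkb were at -0.48 and -0.78, and Plk1, the polo kinase gene, at -0.54. The remaining mitosis genes Cdca3, Cdc20, Tpx2, Nusap1, Bub1 and Cenpf lay between -0.72 and -0.39. Total counts over the 8 libraries were 244 (Bub1) to 2628 (Mki67) for mitosis genes, far below the 42283 of Ccnd1.

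The members also differed in how much they varied among libraries of 1 treatment. The coefficient of variation was larger in antiCD47 than in IgG for 39 of 43 members (90.7%) and for 21 of 21 mitosis genes, beside 68.1% of all genes tested. For mitosis genes its median was 12.1% in IgG and 42.6% in antiCD47, and over all genes 9.87% and 14.1%. For replication genes it was 8.29% and 27.2%, and for G1-S genes 8.57% and 17.98%. AntiCD47 1 was the highest antiCD47 library in 19 of the 21 mitosis genes, and antiCD47 2 the lowest in 17. The genes therefore largely repeat the same differences among 4 libraries and are not separate observations of spread. A lower mean also raises this coefficient where the SD is unchanged. Per kb of exon, the order of levels in IgG ran from Ccnd1 (33.6 CPM per kb), Pcna (23.6) and Cdk4 (17.7) down to Cdc6 (0.264), Bub1 (0.199) and Cenpf (0.128).

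Other genes of the pathway, outside the 43, were counted in the same fit. Of 45 further replication genes 3 fell and none rose: Gmnn (log2 -0.73), the inhibitor of origin licensing, Rpa1 (-0.54), the single-strand binding protein, and Uhrf1 (-1.21), which carries DNA methylation through replication (edgeR adjusted p = 0.0463, 0.0446 and 0.0478). Their median was -0.34, and 41 of 45 were negative. Of 46 further mitosis genes tested 3 fell, Cdca2 (-1.13), the kinetochore gene Ndc80 (-1.10) and the cytokinesis gene Anln (-0.98; edgeR adjusted p = 0.0265, 0.0281 and 0.0422), and 1 rose, the cyclin F gene Ccnf (0.47, edgeR adjusted p = 0.0483). The median was -0.55, and 43 were negative. Of 23 further G1-S genes 1 rose, E2f4 (0.39, edgeR adjusted p = 0.0399), which encodes an E2F of the repressing complexes, none fell, and the median was 0.01. E2f4 read 13.5 to 15.7 CPM in IgG and 17.1 to 22.4 in antiCD47, without overlap. The shares that fell, 6.67%, 6.52% and 0%, stand beside the 5.4% of all genes.

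Markers of several cell types differed between the treatments as well. Of 8 biliary markers 7 fell, and their summed level was 405 to 557 CPM in IgG and 97.4 to 333 in antiCD47. Most of that sum was Spp1, at a mean of 439 of 492 CPM in IgG and 163 of 187 in antiCD47. Among the antiCD47 libraries the highest sum was again in antiCD47 1 and the lowest in antiCD47 2. Spp1, Epcam, Tspan8, Prom1 and Cftr each had those ends. Krt7 and Krt19 were instead highest in antiCD47 4, and Sox9 was lowest there. Of 8 stellate cell and fibroblast markers 4 fell, the collagen genes Col1a1, Col1a2 and Col3a1, and Lum. Lrat (log2 -0.04), Des (0.18), Dcn (-0.12) and Pdgfrb (-0.43) did not pass (edgeR adjusted p = 0.878, 0.353, 0.475 and 0.0701). The list summed to 802 to 1161 CPM in IgG and 490 to 702 in antiCD47. Dcn made up 318 of a mean sum of 969 CPM in IgG and 292 of 618 in antiCD47. The highest and lowest antiCD47 sums of this list were also in antiCD47 1 and antiCD47 2. Neutrophil markers rose in 6 of 6 tested of 8 (6.53 to 8.55 and 15.0 to 32.4 CPM), Kupffer cell and macrophage markers in 4 of 8 (246 to 442 and 432 to 713 CPM), and erythroid precursor markers in 2 of 5 tested of 8, with overlapping sums. Of 8 T and NK cell markers (4.78 to 19.3 and 4.72 to 11.3 CPM), 8 endothelial markers (132 to 187 and 154 to 180 CPM) and 8 B and plasma cell markers (13.1 to 37.1 and 35.9 to 72.2 CPM), none passed. Hepatocyte markers, with 1 of 8 higher (Hnf4a), summed to 65636 to 71033 and 68613 to 80817 CPM, as the labelled tissue has it. Ly6g (neutrophil) and Gata1 (erythroid) had 0 counts in all 4 IgG libraries and 15 and 8 counts over the 4 antiCD47 libraries. Every other marker had counts in both treatments. The ends of the antiCD47 sums differed in the other lists. Kupffer cell and macrophage sums and endothelial sums were lowest in antiCD47 1 and highest in antiCD47 2. Neutrophil and hepatocyte sums were highest in antiCD47 2 and lowest in antiCD47 4. Erythroid sums were highest in antiCD47 1, and those of T and NK cells and of B and plasma cells in antiCD47 4. The part of cell makeup in the levels of the cell cycle genes was not tested.

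**Figure D4:**
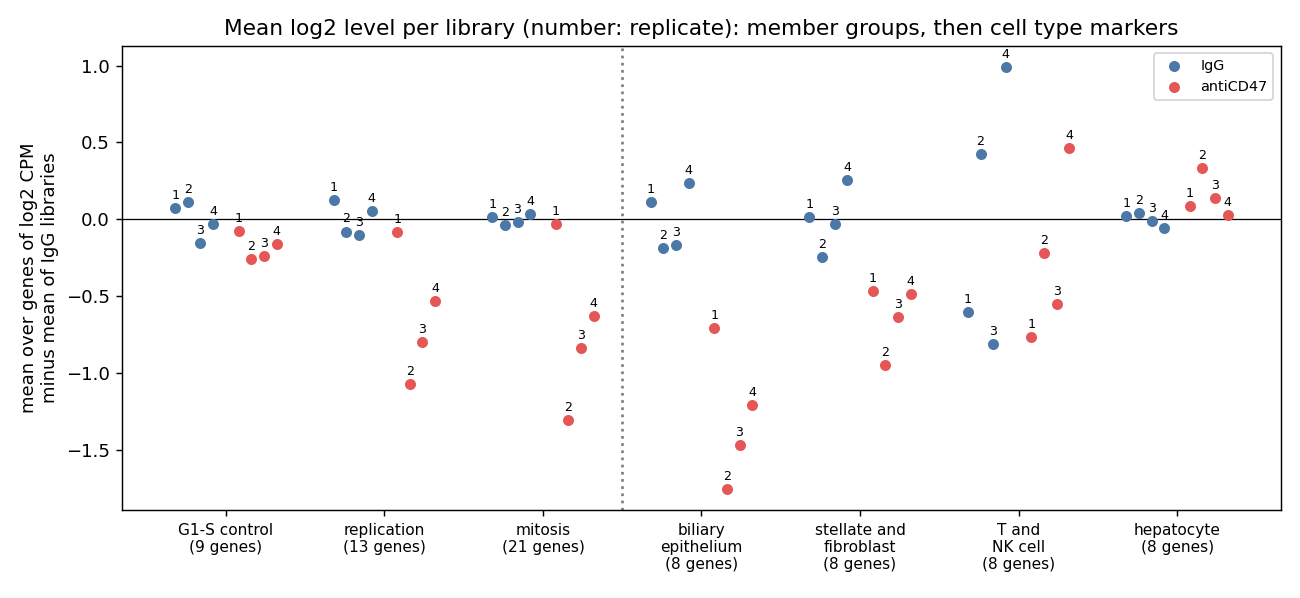
Mean over genes of log2 CPM minus the mean of the IgG libraries (y axis) for each library (points, numbered by replicate), for the 3 member groups on the left and 4 marker lists on the right of the dotted line. AntiCD47 1 lies among the IgG points for replication (-0.08) and mitosis (-0.03) but below them for biliary markers (-0.70, with IgG from -0.18 to 0.24).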

How the data were processed

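Polyadenylated liver RNA was made into Illumina TruSeq libraries, per the labels. The deposited count table holds whole numbers, read here as estimated counts per gene that were not normalized. The submitters' processing notes name Salmon (1.3.0), DESeq2 (1.32.0) and the build GRCm39 without saying what each did. In the comparison table that the authors deposited, a mean normalized count (a signal), a log2 fold change, a p-value, an adjusted p-value and a score named rank stand beside each gene. From that table of 14432 genes only symbols, adjusted p-values and signs were used, since no source here says which treatment is its reference. Its signs were those of antiCD47 over IgG in the edgeR fit for all 43 members and for 13438 of 14241 genes. Other symbols and exon lengths came from GENCODE M21, an annotation of the older build GRCm38.

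Genes were filtered with filterByExpr, scaled with TMM and compared with glmQLFit and glmQLFTest in edgeR 4.0.16 (R 4.3.3). SE is the log2 fold change over the root of F. Alternatives used limma 3.58.1, DESeq2 1.42.0, other scalings and filters, a replicate block and single libraries left out. The fits were checked on simulated data. Total counts of 43691472 to 55477484 set the counting precision. Libraries of a treatment differed from each other by more than sampling noise (chi-square over degrees of freedom at least 25.96), and each was counted as 1 sample. The 43 members, 4 pathway lists and 9 marker lists were chosen with earlier results of these data known. Values per library are given for members past the threshold, for the 4 with the smallest p in each role group, and for Mki67, E2f1, Foxm1, Cdkn1a, Cdkn1b and Pcna. Pathway genes are named if past the threshold, at most 6 a list. Mcm6, Mcm7 and other extra values per library were chosen after they were seen. Cdc25c, on the mitosis list, did not pass the filter. Figures were drawn with matplotlib 3.10.9.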

Additional observations from a re-analysis of the deposited data

Results flagged for a closer look

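In 4 of 94 sets of 4 libraries, 1 library stood apart from the other 3 by Dixon's criterion on the log2 scale, where chance marks about 1 in 20. Plk1 was at 1.42 CPM in antiCD47 1 and at 0.737 to 0.765 in the other antiCD47 libraries. Rrm1 was at 20.5 CPM in IgG 3 and at 22.8 to 23.1 in the other IgG libraries. Ccna2 was at 3.15 CPM in IgG 2, with 3.97 to 4.13 in the others. Bub1 was at 0.801 CPM in IgG 3, with 0.631 to 0.657 in the others.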

How the results depend on the processing

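The number of genes past the threshold was 1678 in the main fit with all libraries. It was 3174 by DESeq2, 3581 with library totals (428 higher and 3153 lower) and 4331 by limma voom with quality weights. At an adjusted p of 0.1 it was 3574, and it ran from 2 to 3630 with single libraries left out. Each is a count over all genes of its fit and does not say how many of the 1678 stayed. Upper quartile scaling gave 634 higher and 969 lower. Of the members 4 passed in the main fit. DESeq2, library totals, quality weights and the threshold of 0.1 gave 12, 14, 28 and 10, and single libraries left out gave 0 to 27. The 28 were 27 lower and 1 higher, Cdkn1a. With the replicate number as a block 10 members and 2425 genes passed; same-numbered libraries deviated with correlations of -0.023 to 0.157, and nothing in the labels pairs them. Of 731 log2 fold changes of single members under the alternatives, 629 kept their direction and side of the threshold, 72 came to pass, 25 no longer passed and 5 turned sign. Those 5 were Ccne1 at 0.09 without IgG 2, 0.03 without IgG 4, 0.11 without antiCD47 3 and 0.03 without antiCD47 4 (lowest -0.17, without IgG 3), and Cdkn1b at 0.0060 without antiCD47 1 (lowest -0.12, without antiCD47 2). The 25 all came from leaving out 1 library, so from fits on fewer samples. The cause of the other shifts was not tested. Low counts limit the precision of single genes such as Bub1 (244 counts in all) and Cdc6 (383).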

Other observations

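Of 16 p53 target genes, counted because Cdkn1a is one as well, 1 rose (Aen, log2 0.30, edgeR adjusted p = 0.048) and 1 fell (Gadd45a, -0.89, edgeR adjusted p = 0.0265), and the median was 0.10. Each is 6.25% of the list, close to the 5.44% of all genes tested that rose and the 5.4% that fell. Gadd45a, a growth arrest gene, read 5.80 to 8.52 CPM in IgG and 2.87 to 5.05 in antiCD47, without overlap. Aen, an exonuclease gene, read 15.7 to 18.5 CPM in IgG and 19.8 to 23.4 in antiCD47. The list's summed level was 293 to 342 CPM in IgG and 291 to 361 in antiCD47, and antiCD47 3, where Cdkn1a was highest, was at 351.

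Members whose promoter window held a CHR match had a median log2 fold change of -0.63 (21 genes), and those without had -0.38 (14 genes). The 7 with an E2F match were at -0.76 and the 28 without at -0.50. These medians mix the role groups, since CHR matches were found in 14 of 16 mitosis genes and 2 of 7 G1-S genes. Within G1-S the CHR medians ran the other way, at -0.04 with a match (2 genes) and -0.15 without (5 genes). Within mitosis they were -0.64 (14 genes) and -0.49 (2 genes), and within replication -0.65 (5 genes) and -0.44 (7 genes).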
